A study of Mus musculus with 6 samples.

Results

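The heat shock chaperones are 10 genes, Hspa1a, Hspa1b, Hspa8, Hsp90aa1, Hsp90ab1, Hspd1, Hspe1, Hsph1, Dnajb1 and Hsf1, taken by gene name from the 54532 genes of the deposited count table. All 10 passed the filter on low counts, which left 15015 genes for the test. Their transcripts were counted by RNA-seq in freshly taken femoral bone marrow cells from wild-type (WT) mice. The unloaded group was 3 libraries from mice kept under hindlimb unloading for 4 weeks, in which the hind limbs are lifted so that they carry no weight, a model of disuse osteoporosis. The control group was 3 libraries from mice without unloading. The labels give no strain, sex or age and no number of animals behind a library, so p-values measure the spread between these libraries.

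Heat shock chaperones help proteins fold and keep them from aggregating. HSP70 proteins bind exposed hydrophobic stretches in cycles of ATP hydrolysis, which J-domain proteins start and nucleotide exchange factors end. HSP90 completes the folding of kinases and steroid receptors, and the HSP60 and HSP10 chaperonin folds proteins imported into mitochondria. The transcription factor HSF1 binds heat shock elements, inverted repeats of GAA, and induces the inducible members under heat, oxidants or other protein damage, while Hspa8 and Hsp90ab1 are made in nearly all cells at all times.

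None of the 10 genes differed between unloaded and control marrow beyond the spread between libraries. The inducible HSP70 genes Hspa1a and Hspa1b, the HSP110 gene Hsph1 and the J-domain gene Dnajb1 instead varied within both groups, and each had its highest values in unloaded 1 and control 1. Hspa8 was also highest in unloaded 1 and control 1, but it was more than 1.5-fold above the other libraries in unloaded 1 alone. The mitochondrial chaperonin genes Hspd1 and Hspe1 and the factor gene Hsf1 did not share this pattern and were lowest in unloaded 1.

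Promoters from RefSeq (GRCm38.p6, the build of mm10) were found for 6 of the 10 genes. They are shown because these genes vary together or apart below. Each window runs from 250 bases before the start of transcription to 50 bases after it, 5′ to 3′ on the gene's strand, and capitals mark heat shock elements of 2 units, GAANNTTC or TTCNNGAA. Both motifs read the same on either strand, and they can overlap each other. The windows are Hspa1a at chr17:34972107-34972406 and Hspa1b at chr17:34959189-34959488, both on the minus strand, Hsph1 at chr5:149636287-149636586 on the minus strand, and Hspe1 at chr1:55087898-55088197 on the plus strand.
Hspa1a: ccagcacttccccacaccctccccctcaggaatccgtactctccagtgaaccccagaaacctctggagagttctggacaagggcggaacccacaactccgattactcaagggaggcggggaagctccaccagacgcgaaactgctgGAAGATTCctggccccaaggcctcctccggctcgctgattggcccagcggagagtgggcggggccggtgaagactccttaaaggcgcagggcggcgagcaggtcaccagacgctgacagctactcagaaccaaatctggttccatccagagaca
Hspa1b: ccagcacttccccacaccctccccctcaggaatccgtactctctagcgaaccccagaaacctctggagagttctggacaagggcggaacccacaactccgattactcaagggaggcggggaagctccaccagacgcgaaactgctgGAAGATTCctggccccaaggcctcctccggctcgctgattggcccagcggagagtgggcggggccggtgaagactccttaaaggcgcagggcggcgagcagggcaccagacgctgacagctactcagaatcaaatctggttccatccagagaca
Hsph1: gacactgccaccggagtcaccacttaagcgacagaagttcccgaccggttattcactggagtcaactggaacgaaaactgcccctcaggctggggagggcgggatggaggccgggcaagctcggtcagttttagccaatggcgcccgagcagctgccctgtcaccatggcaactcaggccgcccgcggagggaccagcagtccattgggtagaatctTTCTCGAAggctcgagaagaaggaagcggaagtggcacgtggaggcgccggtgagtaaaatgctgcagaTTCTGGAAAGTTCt
Hspe1: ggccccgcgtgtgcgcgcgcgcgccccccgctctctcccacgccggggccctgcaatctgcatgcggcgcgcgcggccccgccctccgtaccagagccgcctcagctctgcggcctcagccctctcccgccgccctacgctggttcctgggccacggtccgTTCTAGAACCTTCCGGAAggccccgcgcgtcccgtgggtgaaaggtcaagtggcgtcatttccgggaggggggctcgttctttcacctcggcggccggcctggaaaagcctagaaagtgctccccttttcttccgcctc

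Of 32544 distinct promoter windows, 15.1% held GAANNTTC or TTCNNGAA, and 0.608% held an element of 3 units, in which a further inverted unit follows after 2 bases. The Hspa1a and Hspa1b windows were 98.7% identical over 300 bases. They differed by C44T, T47C, T249G and C276T, with the Hspa1a base first and positions counted from 1 at the 5′ end of the window. Each held 1 exact match to an element of 2 units, 104 bases before the start. Hsph1 held 3 elements of 2 units, of which 2 overlapped as an element of 3 units within the first 50 transcribed bases. Hspe1 held 3 overlapping elements that begin 89, 84 and 79 bases before its start. Hspd1 lies head to head with Hspe1, and its second annotated promoter covers the same elements from the other strand. Neither of the 2 annotated Dnajb1 windows held a match. A match describes the letters of a window and is not evidence of binding. Only exact matches were searched. Elements with a mismatched unit were not counted, so a window without a match may still hold one.

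The libraries held 15850986 to 17775506 counts, with 21906 to 22371 genes detected in each. Unloaded 1 stood apart, with a score of -51.3 against 7.37 to 13.7 for the other 5 libraries on the leading principal component (log2 CPM, counts scaled to library size by TMM), and with 0.439% mitochondrially encoded counts against 1.05% to 1.27%. Neutrophil markers summed to 47424 to 58082 CPM in unloaded and 50887 to 58385 CPM in control libraries. Of 10 skeletal muscle markers, the myosin genes Myh4 and Myh1 had 0 counts in every library, which allows at most 0.189 CPM in the shallowest one, and the 10 together summed to 7.33 to 12.3 CPM in unloaded and 8.39 to 12.6 CPM in control libraries. Erythroid markers summed to 5890.3 to 7953 CPM in unloaded and 4896 to 5869 CPM in control libraries, and megakaryocyte markers to 70.3 to 86.4 CPM in unloaded and 99.9 to 104 CPM in control libraries. Neither pair of ranges overlapped, and 4 of 10 erythroid and 5 of 6 tested megakaryocyte markers had an unadjusted p under 0.05, with 0 called by edgeR. Sums of B cell, T cell, monocyte and stromal markers overlapped. Among them 3 of 10 B cell, 2 of 8 T cell, 4 of 8 monocyte and 0 of 7 tested stromal markers had an unadjusted p under 0.05. None was called by edgeR, and 5.85% of all tested genes had such a p. Higher in unloaded marrow were 0 of 10 B cell, 7 of 8 T cell, 4 of 8 monocyte and 2 of 7 stromal markers. The part of these cell types in the chaperone values was not tested. Bulk counts cannot tell fewer cells of a type from less RNA per cell.

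Levels of different genes were compared per length, in TPM, which divides the deposited counts by the deposited gene lengths and scales each library to the same sum. Hsp90ab1, the constitutive cytosolic HSP90, was at 1327 ± 82.8 TPM in unloaded and 1196 ± 76.2 TPM in control marrow (SD, n = 3 each). Hspa8, the constitutive HSP70, came next at 1116 ± 459 TPM in unloaded and 836 ± 139.6 TPM in control marrow. Hsp90ab1 was above Hspa8 in 5 of 6 libraries, and the exception was unloaded 1, where Hspa8 had 1638 TPM and Hsp90ab1 1422 TPM. This order depends on the deposited lengths, 4301 bases for Hspa8 and 2999 bases for Hsp90ab1. Without division by length, in CPM, Hspa8 was above Hsp90ab1 in unloaded 1, unloaded 3 and control 1 and below it in the others.
Hsp90aa1, the inducible cytosolic HSP90, was at 419 ± 64.8 TPM in unloaded and 385 ± 50.1 TPM in control marrow. Hspd1 had 237 ± 42.7 and Hspe1 107 ± 18.9 TPM in unloaded marrow, against 228 ± 16.9 and 98.8 ± 6.4 TPM in control marrow. The order Hspa8, Hsp90aa1, Hspd1, Hspe1 held in all 6 libraries.
At the low end stood Hspa1b, at 10.9 ± 6.24 TPM in unloaded and 12 ± 4.87 TPM in control marrow, and Hspa1a, at 6.39 ± 4.41 and 6.76 ± 2.58 TPM. The neighbours Hspe1 and Dnajb1, and likewise Hsf1 and Hspa1b, each changed places in 1 of 6 libraries, so their order does not exceed the spread.

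Hspa1a (ENSMUSG00000091971, mm10 chromosome 17, 34969190 to 34972156) and Hspa1b (ENSMUSG00000090877, chromosome 17, 34956436 to 34959238) encode the heat-inducible HSP70. Both are protein-coding genes on the minus strand. Hspa1a was at 12.2, 2.94 and 5.42 CPM in unloaded 1, 2 and 3, against 10.3, 5.9 and 5.45 CPM in control 1, 2 and 3. Hspa1b was at 18.2, 5.76 and 9.06 CPM in the unloaded and 17.6, 9.45 and 9.2 CPM in the control libraries. In each group the first library was high and the other two were low, and the groups overlapped. The span between the highest and the lowest library was 4.15-fold for Hspa1a, the widest of the 10 genes, and 3.16-fold for Hspa1b.
The log2 fold change of unloaded over control marrow was -0.08 ± 0.44 (SE) for Hspa1a and -0.14 ± 0.38 for Hspa1b, with adjusted p of 0.986 and 0.973 by edgeR's quasi-likelihood test. The 95% interval for Hspa1a ran from -1.05 to 0.89, so changes of up to about that size in either direction could not be told from 0.

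Near-identical copies can exchange reads. Of the windows of 100 bases in GENCODE M21 transcripts, 47.1% of those of Hspa1a also occurred in Hspa1b. The pair was therefore also counted together, with 478, 148 and 235 counts in unloaded 1, 2 and 3, against 490, 255 and 250 in control 1, 2 and 3. Exact Poisson 95% intervals, which cover counting error only, ran from 436 to 523 in unloaded 1 and from 125 to 174 in unloaded 2, so counting error did not span that difference. Hspa1b took 59.8% to 66.2% of the pair's counts in every library. The gene model of Gm20481, which had 0 counts, overlaps Hspa1a by 2225 bases on the opposite strand. The strand setting of the counting is not given, so reads there could not be assigned with certainty. What this did to the Hspa1a counts and to the split of the pair was not tested. Summed to 1 row, the pair had a log2 fold change of -0.12 ± 0.39 (adjusted p = 0.979, edgeR).
Without unloaded 1 the 2 remaining unloaded libraries lay below all controls for both genes, at -0.79 ± 0.34 for Hspa1a and -0.71 ± 0.30 for Hspa1b, with adjusted p of 0.517 and 0.516 (edgeR). Without control 1 both had the other sign, at 0.27 and 0.23.

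**Figure D1:**
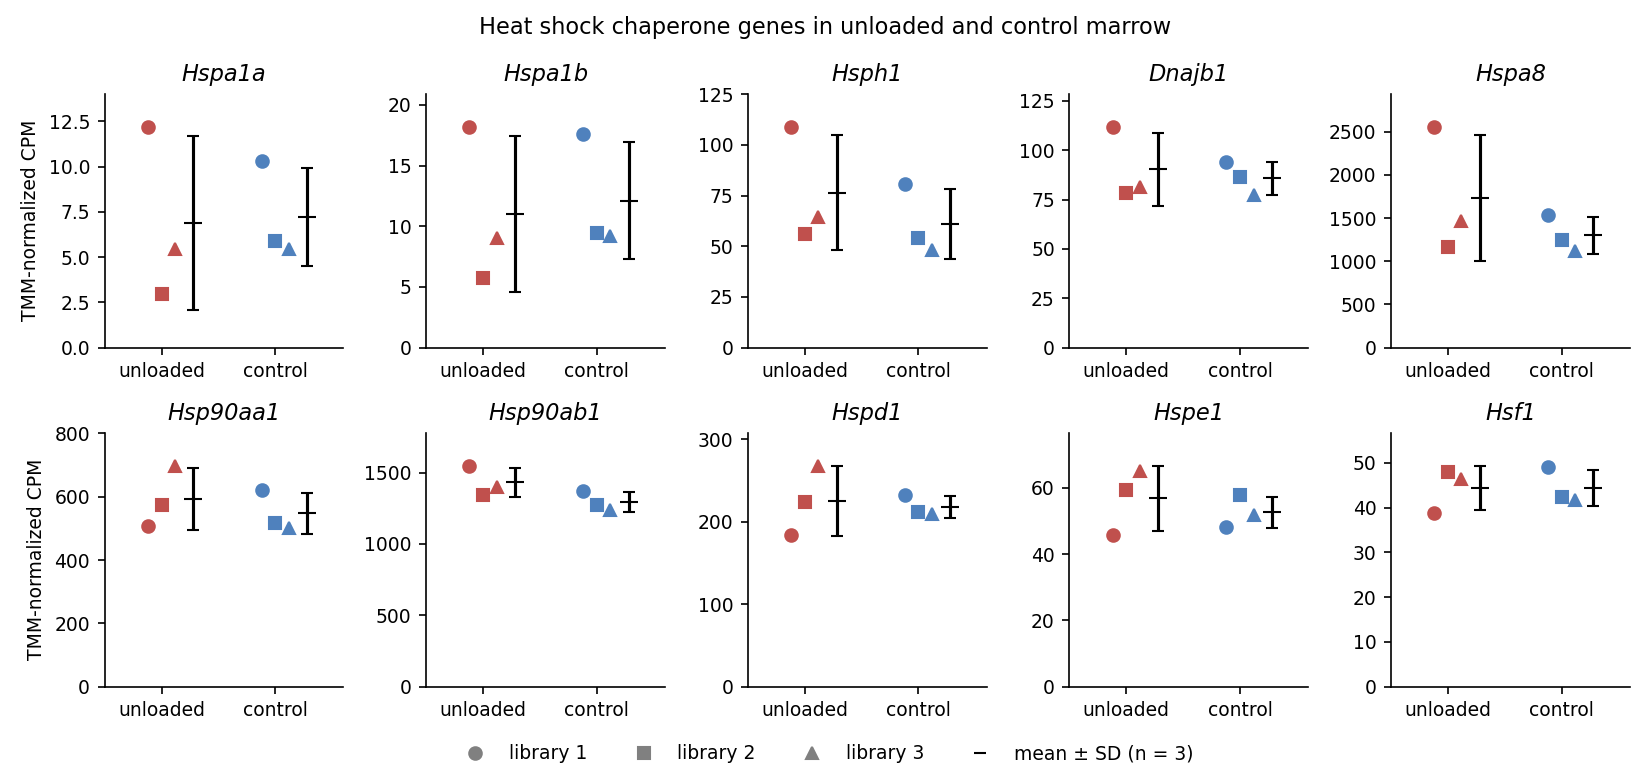
TMM-normalized CPM (y axis, from 0, a scale per gene) of the 10 heat shock chaperone genes in the 3 unloaded and 3 control libraries; symbols are libraries and bars the mean ± SD (n = 3). Hspa1a, Hspa1b, Hsph1, Dnajb1 and Hspa8 are highest in unloaded 1 and control 1, and the groups overlap for all 10 genes.

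Hsph1 (ENSMUSG00000029657, chromosome 5, 149614287 to 149636376, minus strand) encodes HSP110, a nucleotide exchange factor of HSP70. Its values were 109, 56.3 and 64.2 CPM in unloaded 1, 2 and 3, against 80.5, 54.1 and 48.2 CPM in control 1, 2 and 3. The first library was again the highest of each group. The log2 fold change was 0.33 ± 0.25 (adjusted p = 0.901, edgeR), and without unloaded 1 it was -0.02 ± 0.18. Without control 1 it was 0.58 ± 0.25, with the unloaded libraries above both remaining controls and an adjusted p of 0.999.

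Dnajb1 (ENSMUSG00000005483, chromosome 8, 83608193 to 83612653, plus strand) encodes a J-domain protein that hands clients to HSP70 and is itself heat-inducible. Dnajb1 was at 112, 78.2 and 81.2 CPM in unloaded 1, 2 and 3, against 94, 86.5 and 77.2 CPM in control 1, 2 and 3. Its span was narrower, 1.45-fold, with the same pair of libraries on top. The log2 fold change was 0.07 ± 0.15 (adjusted p = 0.96, edgeR) and was -0.11 ± 0.10 without unloaded 1.

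Hspa8 (ENSMUSG00000015656, chromosome 9, 40800984 to 40810087, plus strand) encodes HSC70, the constitutive HSP70 that also uncoats clathrin vesicles. It was at 2559, 1164 and 1471 CPM in unloaded 1, 2 and 3, against 1534, 1244 and 1119 CPM in control 1, 2 and 3. Unloaded 1 lay 2.06-fold above the median of the other 5 libraries, which overlapped. Control 1 was the next highest, slightly above unloaded 3. The log2 fold change of 0.42 ± 0.25, the largest of the 10, had an adjusted p of 0.89 (edgeR) and a 95% interval from -0.13 to 0.96. Without unloaded 1 it was 0.02 ± 0.14. Hspa8 supplied 49.9% of the counts of the 10 genes in unloaded 1 and 32.7% to 37.8% in the other 5 libraries. The 10 genes together took 0.509%, 0.366% and 0.407% of all counts in unloaded 1, 2 and 3, against 0.4%, 0.345% and 0.337% in control 1, 2 and 3.

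Hsp90aa1 (ENSMUSG00000021270, chromosome 12, 110690605 to 110702728, minus strand), the HSP90 gene that heat induces, did not follow Hspa8 in unloaded 1. It was at 506, 574 and 698 CPM in unloaded 1, 2 and 3, against 622, 517 and 501 CPM in control 1, 2 and 3. Unloaded 3 was highest and unloaded 1 was among the lowest. The log2 fold change was 0.12 ± 0.14 (adjusted p = 0.931, edgeR), and it was 0.22 ± 0.12 without unloaded 1 and -0.02 without unloaded 3. Of its windows of 100 bases 38% also occurred in other genes, chiefly Gm12346, and of those of Hspa8 28.5% did. The ratio of Hsp90aa1 to Hspa8, in CPM, was 0.198 in unloaded 1 and 0.406 to 0.493 in the other 5 libraries. Their Pearson r in log2 CPM was -0.06 over the 6 libraries and 0.82 over the 5 without unloaded 1. Between Hspa8 and Hspd1 it went from -0.42 to 0.75, and between Hspa8 and Hsf1 from -0.47 to 0.61. Between Hspa8 and Hspe1 it went from -0.58 to -0.04. With the inducible genes Hspa8 had a high r in both sets. It went from 0.96 to 0.92 with Hsph1 and from 0.94 to 0.73 with Dnajb1. With Hspa1a it went from 0.79 to 0.68 and with Hspa1b from 0.77 to 0.70.
Hsp90ab1 (ENSMUSG00000023944, chromosome 17, 45567775 to 45573271, minus strand) varied least of the 10 genes, with a span of 1.25-fold between the highest and the lowest library. Its values were 1549, 1346 and 1398 CPM in unloaded 1, 2 and 3, against 1371, 1272 and 1240 CPM in control 1, 2 and 3. Control 1 lay above unloaded 2, and the other 2 controls lay below every unloaded library. The log2 fold change was 0.15 ± 0.11 (adjusted p = 0.896, edgeR), with a 95% interval from -0.09 to 0.38. With upper-quartile scaling the 3 unloaded values lay above the 3 controls. That scaling also put the median log2 fold change of all tested genes at 0.024, against 0.005 with TMM. How many of all genes separated under it was not counted.

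Hspd1 (ENSMUSG00000025980, chromosome 1, 55077835 to 55088243, minus strand) and Hspe1 (ENSMUSG00000073676, chromosome 1, 55088132 to 55091307, plus strand) encode HSP60 and HSP10, the barrel and lid of the mitochondrial chaperonin. Their gene models overlap by 112 bases on opposite strands, and reads there could not be assigned with certainty since the strand setting of the counting is not given in the sources used here. Hspd1 was at 184, 224 and 268 CPM in unloaded 1, 2 and 3, against 233, 212 and 209 CPM in control 1, 2 and 3. Hspe1 was at 45.8, 59.5 and 65 CPM in the unloaded and 48.3, 57.7 and 51.9 CPM in the control libraries. Both were lowest in unloaded 1 and highest in unloaded 3, so the unloaded group held both ends of the range.
Of the Hspd1 windows of 100 bases 22.4% also occurred in the pseudogene Hspd1-ps3, with 552 counts over the 6 libraries. The log2 fold changes of Hspd1 and Hspe1 were 0.05 ± 0.14 and 0.11 ± 0.14, with adjusted p of 0.974 and 0.936 (edgeR). Without unloaded 1, Hspe1 was above all controls in both remaining unloaded libraries, at 0.24 ± 0.10 (adjusted p = 0.5, edgeR). The ratio of Hspd1 to Hspe1, in CPM, was 4.01, 3.76 and 4.12 in unloaded 1, 2 and 3, against 4.82, 3.67 and 4.02 in control 1, 2 and 3.

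Hsf1 (ENSMUSG00000022556, chromosome 15, 76477422 to 76501913, plus strand), whose product is held inactive by chaperones until damaged proteins draw them away, was at 38.7, 47.9 and 46.5 CPM in unloaded 1, 2 and 3, against 49, 42.3 and 41.8 CPM in control 1, 2 and 3. Its lowest value was in unloaded 1 and its highest in control 1, the same 2 libraries in which the inducible HSP70 genes were high. The group means were 44.4 ± 4.98 CPM in unloaded and 44.4 ± 4.03 CPM in control marrow (SD, n = 3 each), with a log2 fold change of 0.00 ± 0.12 and a 95% interval from -0.27 to 0.27.

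**Figure D2:**
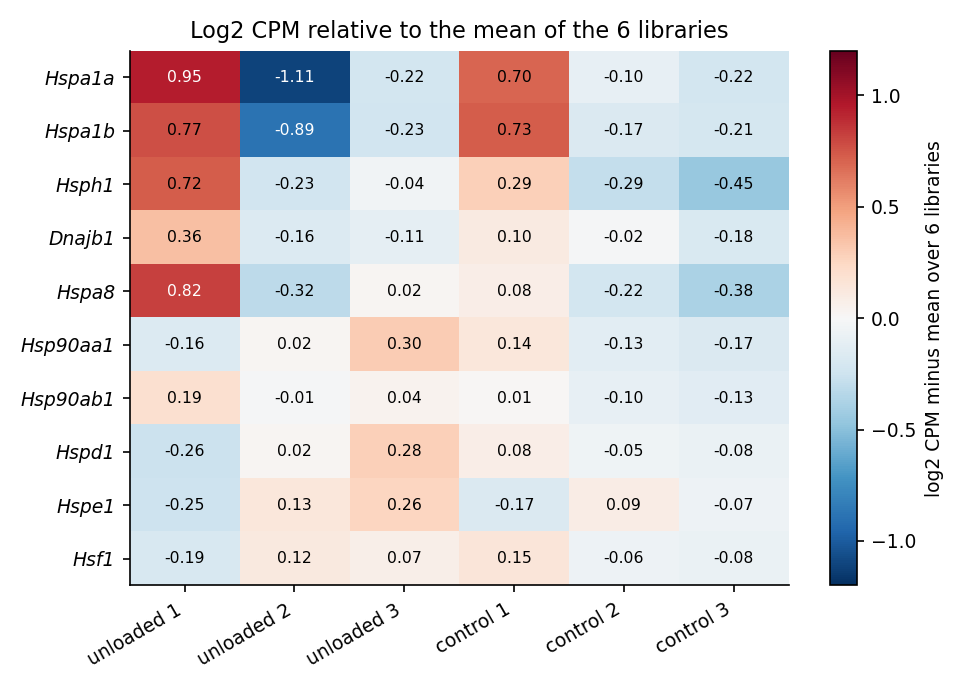
Log2 CPM of each gene (rows) in each library (columns) minus its mean over the 6 libraries, with red above and blue below the mean. Hspa1a reaches 0.95 in unloaded 1 and 0.70 in control 1 and -1.11 in unloaded 2, while Hspd1, Hspe1 and Hsf1 are at -0.26, -0.25 and -0.19 in unloaded 1.

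Over all genes tested edgeR called 0% at an adjusted p under 0.05, and it called none of the 10 chaperones. At an unadjusted p under 0.05 there were 5.85% of all genes, 2.67% higher and 3.18% lower in unloaded marrow, and 0 of the 10, and the smallest unadjusted p among them was 0.12 for Hspa8. DESeq2 called 0.302% of the genes it gave an adjusted p and limma-voom called none, and neither called a chaperone or gave one an unadjusted p under 0.05. The 3 unloaded values lay entirely above or below the 3 controls for 11.9% of all genes, 5.46% with unloaded above, and for 0 of the 10. Without the filter on low counts edgeR called 0.671% of genes and none of the 10. The median log2 fold change of the 10 was 0.092, against 0.005 over all tested genes, with 8 positive values. With 1 library left out the median ran from 0.03 without unloaded 3 to 0.204 without control 1, and was 0.037 without control 3 and 0.052 without unloaded 1, with 5 to 10 positive values.
Without unloaded 1, edgeR called 0.0324% of genes and none of the 10. Then 8.98% of genes, 3.81% higher in unloaded marrow, and 3 of the 10, Hspa1a, Hspa1b and Hspe1, had an unadjusted p under 0.05, and the groups did not overlap for these 3 and for 26.1% of all genes.

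**Figure D3:**
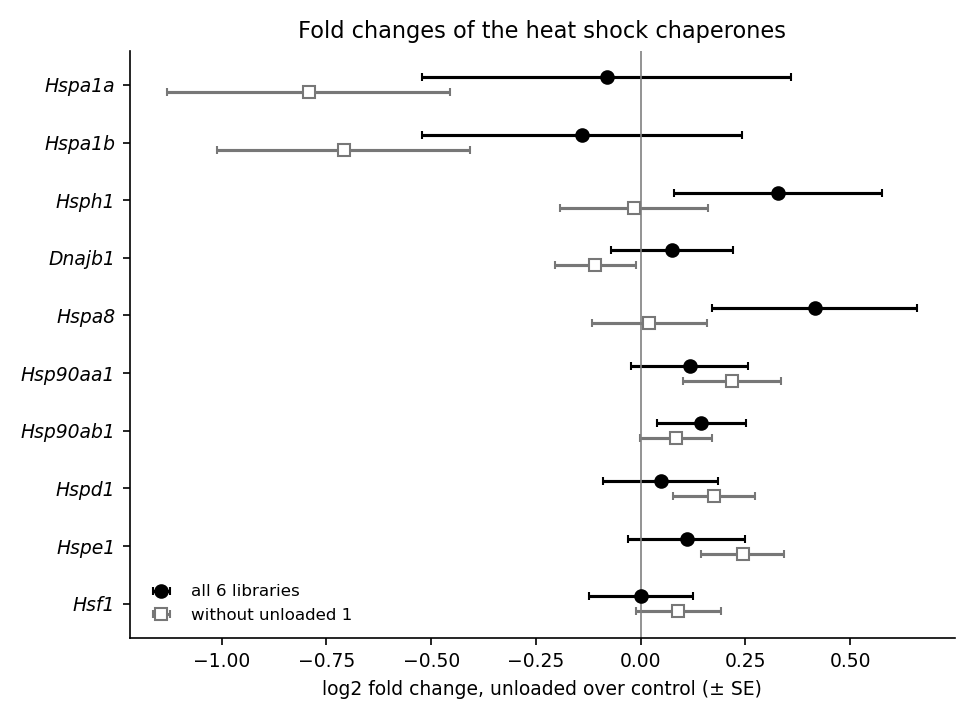
Log2 fold changes of unloaded over control marrow (x axis, ± SE, edgeR) for each gene, with all 6 libraries (filled circles) and without unloaded 1 (open squares). Hspa8 and Hsph1 are at 0.42 and 0.33 with all libraries and at 0.02 and -0.02 without unloaded 1, while Hspa1a and Hspa1b are at -0.79 and -0.71 without it.

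Libraries of the same group differed for several of these genes. Unloaded 1 was the highest library for 6 of the 10 genes, against 28.2% of all tested genes. It was the lowest for Hspd1, Hspe1 and Hsf1, 3 of the 10, which is near the 29.5% of all tested genes that were lowest there. Unloaded 1 was at least 1.5-fold above the median of the other 5 libraries for 4 of the 10 genes, Hspa1a, Hspa1b, Hspa8 and Hsph1, against 9.82% of all tested genes. Control 1 was at least 1.5-fold above the mean of control 2 and control 3 for Hspa1a, Hspa1b and Hsph1, at 1.82-fold, 1.89-fold and 1.57-fold, against 4.06% of all tested genes. Unloaded 1 and control 1 were the 2 highest libraries for 5 of the 10, Hspa1a, Hspa1b, Hsph1, Dnajb1 and Hspa8, and for 8.7% of all genes. These comparisons were chosen after the values were seen and are descriptions without a test. Hspa1a and Hspa1b had a Pearson r of 0.99 across the 6 libraries in log2 CPM, with shared reads as a possible part of it that was not tested.

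Immediate early genes, which handling and stimulation switch on within minutes, differed in these 2 libraries. Their 16 listed genes summed to 3427 CPM in unloaded 1 and 7935 CPM in control 1, the lowest and the highest of the 6 libraries. Of the 16, 15 were highest in control 1, against 15.9% of all tested genes, and 11 were lowest in unloaded 1, against 29.5%. Fos was at 299, 705 and 724 CPM in unloaded 1, 2 and 3, against 1316, 709.9 and 842 CPM in control 1, 2 and 3. The inducible chaperones Hspa1a, Hspa1b, Hsph1 and Dnajb1 were high in both unloaded 1 and control 1. Over the groups the immediate early genes summed to 3427 to 4918 CPM in unloaded and 5112 to 7935 CPM in control marrow. Of these genes 15 of 16 had a negative fold change. An unadjusted p under 0.05 (edgeR) was found for 6 of the 16, against 5.85% of all tested genes, and 0 were called. Their part in the chaperone values was not tested.

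Beyond the 10 genes, 93 genes of chaperone networks were listed, of which 83 were tested and 0 were called by edgeR. At an unadjusted p under 0.05 there were 5 higher and 1 lower, 7.23% of those tested against 5.85% of all genes, and DESeq2 also called 0 with 6 at that unadjusted p. Without unloaded 1 there were 9 higher and 1 lower, 12% of those tested against 8.98% of all genes, and 0 called. The list count was 1 without control 1, 3 without control 2 and 10 without unloaded 2. In those fits 3.1%, 4.43% and 7.19% of all genes passed, so both moved the same way there. The list count was 5 without control 3 and 5 without unloaded 3, where 4.65% and 7.01% of all genes passed. Without unloaded 3 the list count and the share of all genes thus moved in opposite ways.

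The HSP90 paralog Trap1 and the HSP90 cochaperones, which load clients and drive the ATPase cycle, had 14 of 16 positive fold changes. Their median was 0.15 against 0.005 over all genes, or 0.09 without unloaded 1. At an unadjusted p under 0.05 (edgeR) there were 3 of the 16, all higher, against 5.85% of all genes. Without unloaded 1 there was 1, against 8.98% of all genes. Ahsa2, which belongs to the activators of the HSP90 ATPase, had the smallest p of its list, at 26.1, 17 and 18.4 CPM in unloaded 1, 2 and 3, against 15.3, 13.6 and 15.6 CPM in control 1, 2 and 3 (log2 fold change 0.47 ± 0.18, adjusted p = 0.804, edgeR). All unloaded values lay above all controls. Without unloaded 1 the log2 fold change of Ahsa2 was 0.26 (unadjusted p = 0.0879). Of the negative members Ppp5c, an HSP90-bound phosphatase gene, had the smallest p, at -0.05 ± 0.12. The immunophilin gene Fkbp5, which glucocorticoids induce and which was chosen here after its values were seen, was at 275 CPM in unloaded 1 and 84.2 to 118 CPM in the other 5 libraries.

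The genes of the cytosolic chaperonin TRiC, which folds actin and tubulin, and of prefoldin, which delivers clients to it, had 13 of 14 positive fold changes with a median of 0.15. That median was 0.07 without unloaded 3, with 9 positive values. At an unadjusted p under 0.05 (edgeR) there were 0 of the 14, against 5.85% of all genes. Without unloaded 1 all 14 were positive, with a median of 0.19. Then 4 of the 14, all higher, had such a p, against 8.98% of all genes, and 0 were called. With all libraries Cct5 had the smallest p of the list. It was at 295, 242 and 281 CPM in unloaded 1, 2 and 3, against 223, 243 and 233 CPM in control 1, 2 and 3. Its log2 fold change was 0.23 ± 0.11 (adjusted p = 0.871, edgeR). The only negative member with all libraries was the prefoldin gene Vbp1, at -0.09 ± 0.13.

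The other HSP70 and HSP110 genes were mixed, 5 positive and 3 negative. Hspa2, a testis-enriched HSP70 gene, was the 1 listed gene lower at an unadjusted p under 0.05. It was at 16.2, 12.3 and 16.1 CPM in unloaded 1, 2 and 3, against 24, 19.5 and 17.4 CPM in control 1, 2 and 3 (log2 fold change -0.45 ± 0.17, adjusted p = 0.804, edgeR), with every unloaded value below every control. Hspa9, the mitochondrial HSP70, was at 0.16 ± 0.11. Among 10 genes of mitochondrial protein quality control the matrix protease gene Clpp was at 22.5, 22.9 and 24.7 CPM in unloaded 1, 2 and 3, against 15.2, 18.4 and 19.8 CPM in control 1, 2 and 3. These groups did not overlap, with a log2 fold change of 0.39 ± 0.14 and an adjusted p of 0.801 (edgeR). Dnaja3, a mitochondrial J-domain gene of the same list, was at -0.13 ± 0.13.

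J-domain genes other than Dnajb1 had 6 positive and 12 negative fold changes. Their median was -0.055, and leaving out control 1 or unloaded 1 put it at -0.010 or -0.019. The ribosome-bound Dnajc2 (0.16 ± 0.12) and the endoplasmic reticulum membrane protein gene Dnajb12 (-0.20 ± 0.10) had the smallest p in each direction, and neither was called. Of 12 nucleotide exchange factors and other HSP70 partners, 11 were positive, and the list median was 0.101. The ubiquitin ligase gene Stub1 had the smallest p of these, at 0.20 ± 0.13, and the negative Bag4 was at -0.08 ± 0.14. Without unloaded 1 the list had 8 positive fold changes and a median of 0.052. Bag3, an HSF1 target chosen after its values were seen, was at 25.2, 14.2 and 16.5 CPM in unloaded 1, 2 and 3, against 17.1, 15.5 and 11.7 CPM in control 1, 2 and 3, again with the first library highest in each group. Most listed genes did not share this. Unloaded 1 and control 1 were the 2 highest libraries for 2 of these 12 genes. The same held for 3 of 13 tested HSF1 targets outside the chaperones and for 8.7% of all tested genes.

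Heat-inducible HSF1 targets outside the 10 had 7 of 13 positive fold changes and a median of 0.022, and the median was -0.07 without control 3. Hmox1, the heme oxygenase gene, which oxidants and heme also induce, was at 107, 69.4 and 68.7 CPM in unloaded 1, 2 and 3, against 58, 60.8 and 62 CPM in control 1, 2 and 3. Its groups did not overlap, at a log2 fold change of 0.44 ± 0.16 with an adjusted p of 0.804 (edgeR), or 0.20 without unloaded 1. The polyubiquitin gene Ubb ran the other way at -0.21 ± 0.11, with all unloaded values below all controls.
Of 10 small heat shock protein genes, 3 passed the filter. Hspb6, chosen here after its values were seen, was at 8.33, 9.41 and 8.69 CPM in unloaded 1, 2 and 3, against 7.42, 8.25 and 8.56 CPM in control 1, 2 and 3 (log2 fold change 0.13 ± 0.17, adjusted p = 0.941, edgeR). Its groups overlapped. Hspb3, Hspb7 and Cryaa had 0 counts in all libraries. Hspb1 reached at most 4 counts and Cryab at most 14. Of the other tested ones, which were near the filter, Hspb9 was at 0.58 ± 0.39 and Hspb11 at -0.19 ± 0.38. Among the other heat shock factors, Hsf2 was at 0.10 ± 0.18, while Hsf3, Hsf4 and Hsf5 did not pass the filter. Hsbp1, whose product binds HSF1, was at -0.05 ± 0.11.

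**Figure D4:**
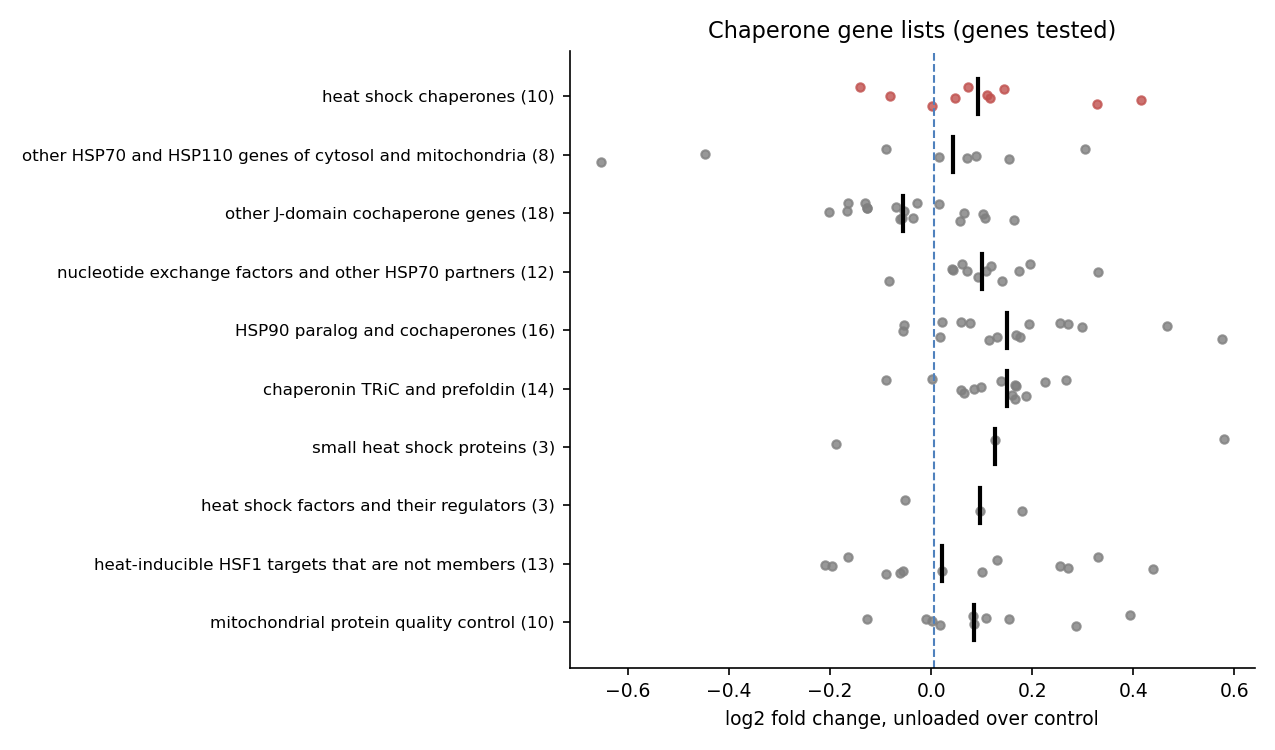
Log2 fold changes of unloaded over control marrow (x axis) for the tested genes of each chaperone list (rows, number tested in parentheses); black bars are list medians and the dashed line is the median of all tested genes, 0.005. The J-domain list has a median of -0.055 and the other lists medians of 0.022 to 0.15.

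The genes whose pattern over the 6 libraries was most like the mean standardised log2 CPM of Hspa1a, Hspa1b, Hsph1 and Dnajb1 were Selenok, Iqgap1, Btbd9, 4930518I15Rik and Col14a1, with Pearson r of 0.994 to 0.987, taken from all tested protein-coding genes. That many candidates over 6 points yield high values of r, so these are a description. Iqgap1, a cytoskeletal scaffold gene, was at 1082 CPM in unloaded 1 and 1028 CPM in control 1, against 918 to 953 CPM in the other 4 libraries, a far narrower range than that of Hspa1a. Selenok, a selenoprotein gene of the endoplasmic reticulum, was at 69.5 CPM in unloaded 1 and 64.9 CPM in control 1, against 55.6 to 58.9 CPM in the other 4.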

How the data were processed

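The 6 libraries were placed in 2 groups of 3 by their titles. Per the labels' protocols, RNA came from TRNzol extraction and libraries from a NEBNext Ultra kit. CASAVA, HISAT2 2.0.5, featureCounts 1.5.0-p3 and mm10 are named per the submitters' processing notes, without their settings. Annotation release, strand setting and handling of multi-mapping reads are not given. The deposited table holds raw read counts per gene, not normalized, with a gene length in bases, another deposited measure. Even the closest pair of libraries had a chi-square of 7.2 per degree of freedom over genes, so none was a repeat deposit.

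Counts were filtered with filterByExpr, scaled by TMM and tested with edgeR 4.0.16 (quasi-likelihood, R 4.3.3), with Benjamini-Hochberg adjustment over 15015 genes and calls at an adjusted p under 0.05. SEs were taken from the log2 fold change and its F statistic, and 95% intervals from a t distribution. Alternatives were DESeq2 1.42.0, limma-voom 3.58.1, robust edgeR, RLE and upper-quartile scaling, other filters, each library left out and a replicate block. The code was tested on simulated data. Apart from the 10 chaperones, genes were named by the smallest p per list and direction, and by likeness to the inducible genes. The members and lists were chosen with earlier results of these data known. Windows of 100 bases were compared on GENCODE M21 transcripts.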

Additional observations from a re-analysis of the deposited data

How the results depend on the processing

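Depth, from 15850986 to 17775506 counts, left Hspa1a with as few as 50 counts in a library, whereas Hspa8 had at least 19088. The number of genes called by edgeR was 0 with all libraries, 183 without a low-count filter, 40 by DESeq2, 1 with the replicate block and 0 to 5 with 1 library left out; no setting called a chaperone. Members at an unadjusted p under 0.05 numbered 0, and 2 without a low-count filter (Hspa8 and Hsph1), 1 with the replicate block (Hsph1) and 0 to 3 with 1 library left out. Of all tested genes 5.85%, 5.91%, 5.06% and 3.1% to 8.98% had such a p in these fits. Members with separated groups numbered 0, against 11.9% of all tested genes, or 1 with upper-quartile scaling. With 1 library left out they numbered 0 to 3, with fewer libraries to separate. The 3 came without unloaded 1, where 26.1% of all genes separated. That share was not counted in the other settings. Of the 83 other chaperone genes 0 were called, or 1 without a low-count filter (Fkbp5), and 6 had an unadjusted p under 0.05, or 1 to 10 with 1 library left out; these counts were added after seeing the data. The cause of these shifts was not tested.

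Several log2 fold changes changed sign or reached 0, that of Hsph1 (0.33 with all libraries) among them. With 1 library left out, Hspa1a ran from -0.79 to 0.28, Hspa1b from -0.71 to 0.23, Hsp90aa1 from -0.02 to 0.22, Hspd1 from -0.10 to 0.18, Hspe1 from 0.00 to 0.24, Hsph1 from -0.016 to 0.58, Dnajb1 from -0.11 to 0.17 and Hsf1 from -0.062 to 0.09. Hsf1 was also at -0.008 without a low-count filter and at -0.001 with limma-voom or the replicate block. Hspa8 and Hsp90ab1 kept a positive sign in all 14 alternatives, at 0.02 to 0.63 and 0.08 to 0.19. Replicate numbers share only a number: deviations of same-numbered libraries correlated at 0.031, -0.063 and 0.019, and not every library correlated best with its own number.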
